A study of Mus musculus with 8 samples.

Results

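The collagen chain genes were examined in mouse cerebellum of the genotype labelled Cic-L-null, after the gene Cic (Capicua), which encodes a DNA-binding repressor known as a partner of ataxin-1. Members were all genes whose symbol in the annotation of the array has the form Col, a number, the letter a and a number, and 40 of the 20352 measured genes met that rule. RNA came from cerebellum at 28 days of age, in 4 samples of the genotype Cic-L-null and 4 wild-type samples, all of a mixed background that the labels give as Swiss Webster (CD-1). Each sample was measured on 1 Affymetrix Mouse Gene 1.0 ST array, so n = 4 in each group throughout, and each gene value is an average of log2 values over the gene's probe sets. The labels do not say whether each sample is a separate animal or how the allele was made, and the extraction label of wild-type replicate 1 differs from that of the other 7 arrays.

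Collagens are matrix proteins of 3 chains wound into a helix of Gly-X-Y repeats, and each chain has its own gene. Fibrillar collagens such as types I and III form the fibres of connective tissue, which in the brain lies mainly in the meninges and around large vessels. Type IV collagen forms the network of basement membranes around capillaries and under the meninges, and FACIT collagens (fibril-associated, with interrupted helices) sit on the surface of fibrils. Transmembrane collagens such as types XXIII and XXV are anchored in the cell surface, and type XXV is expressed by neurons.

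Genes of several chains lie side by side in the genome. The 2 main basement membrane chains, Col4a1 and Col4a2, start from opposite strands within a short stretch of DNA, and the promoter windows of RefSeq (GRCm38.p6, 250 bases before to 50 after the start) overlap by 78 bases. Both are printed 5′ to 3′ to show the stretch from which these neighbours start. Capitals mark the 78 shared bases, which are the reverse complement of each other. The Col4a1 window is chr8:11312777-11313076 on the minus strand and the Col4a2 window is chr8:11312555-11312854 on the plus strand.
Col4a1: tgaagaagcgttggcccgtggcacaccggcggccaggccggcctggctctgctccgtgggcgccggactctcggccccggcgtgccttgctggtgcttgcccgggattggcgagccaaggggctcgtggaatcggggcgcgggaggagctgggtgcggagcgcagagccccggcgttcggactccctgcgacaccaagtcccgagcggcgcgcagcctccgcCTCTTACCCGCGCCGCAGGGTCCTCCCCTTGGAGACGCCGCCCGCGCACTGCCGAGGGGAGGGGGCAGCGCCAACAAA
Col4a2: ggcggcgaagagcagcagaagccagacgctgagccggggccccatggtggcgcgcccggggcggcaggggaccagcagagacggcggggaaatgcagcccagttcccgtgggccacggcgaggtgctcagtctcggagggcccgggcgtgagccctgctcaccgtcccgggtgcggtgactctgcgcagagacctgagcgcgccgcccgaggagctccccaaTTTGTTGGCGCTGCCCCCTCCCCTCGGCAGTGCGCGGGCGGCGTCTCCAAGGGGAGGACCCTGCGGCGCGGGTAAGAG
The sequence was also searched for the octamers known to bind Capicua, TGAATGAA, TGAATGGA, TCAATGAA and TCAATGGA, on both strands. A window was available for 32 of the 40 collagen genes, 35 windows in all, and 0 of the 35 held an octamer, against 3.84% of 32851 windows of all genes. At that share few of 35 windows would hold an octamer, so 0 of 35 does not show a deficit. The median GC content was 59.7% in the collagen windows and 52.7% in all windows, and the part of base composition in this count was not tested. The search did not cover Col1a1, Col2a1, Col4a3, Col5a2, Col9a3, Col12a1, Col14a1 and Col22a1.

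The series as a whole gave 28 calls among 20352 genes (0.138%) at a limma adjusted p under 0.05, with 18 higher (0.0884%) and 10 lower (0.0491%) in Cic-L-null. Cic, on chromosome 7, had log2 values of 7.50, 7.48, 7.62 and 7.54 in Cic-L-null arrays, against 8.74, 8.57, 8.63 and 9.19 in wild-type arrays. All mutant arrays lay below all wild-type arrays, and Cic fell by 1.25 on the log2 scale (SE 0.12, adjusted p = 0.00818). No collagen gene of the rule lies on that chromosome. The defining markers of Purkinje cells and of granule cells were all above the dim limit of 6.21, the 95th percentile of 967 olfactory receptor genes. Averaged over the 8 arrays, 39 of the 40 collagen genes lay above that limit, and Col28a1 did not. Over all genes 14002 of 20352 lay above it, so passing it alone does not show that a chain was expressed. Probe sets differ in brightness, so log2 values are not ranked between genes.

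Of the 40 collagen chain genes, 0 passed the test in either direction, with 5 at an unadjusted p under 0.05 (12.5%, against 9.26% of all genes). Groups did not overlap for 4 of the 40 genes, against 5.94% of all genes. Col12a1 and Col9a1 were higher in every Cic-L-null array than in every wild-type array (3.02% of all genes), and Col9a3 and Col4a1 were lower in every one (2.91% of all genes). In 28 of the 40 genes the difference was under 0.1 log2 units in size, and the median size was 0.056, against 0.064 over all genes. The 95% intervals of all 40 differences lay between -0.42 and 0.58, and 35 of the 40 included 0. In signed terms 25 collagen genes were below 0 (62.5%, against 53.0% of all genes) and 15 above. Their median was -0.031, against a median of -0.0071 over all genes. In these bulk samples, fewer cells of a type and less RNA per cell cannot be told apart.

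**Figure D1:**
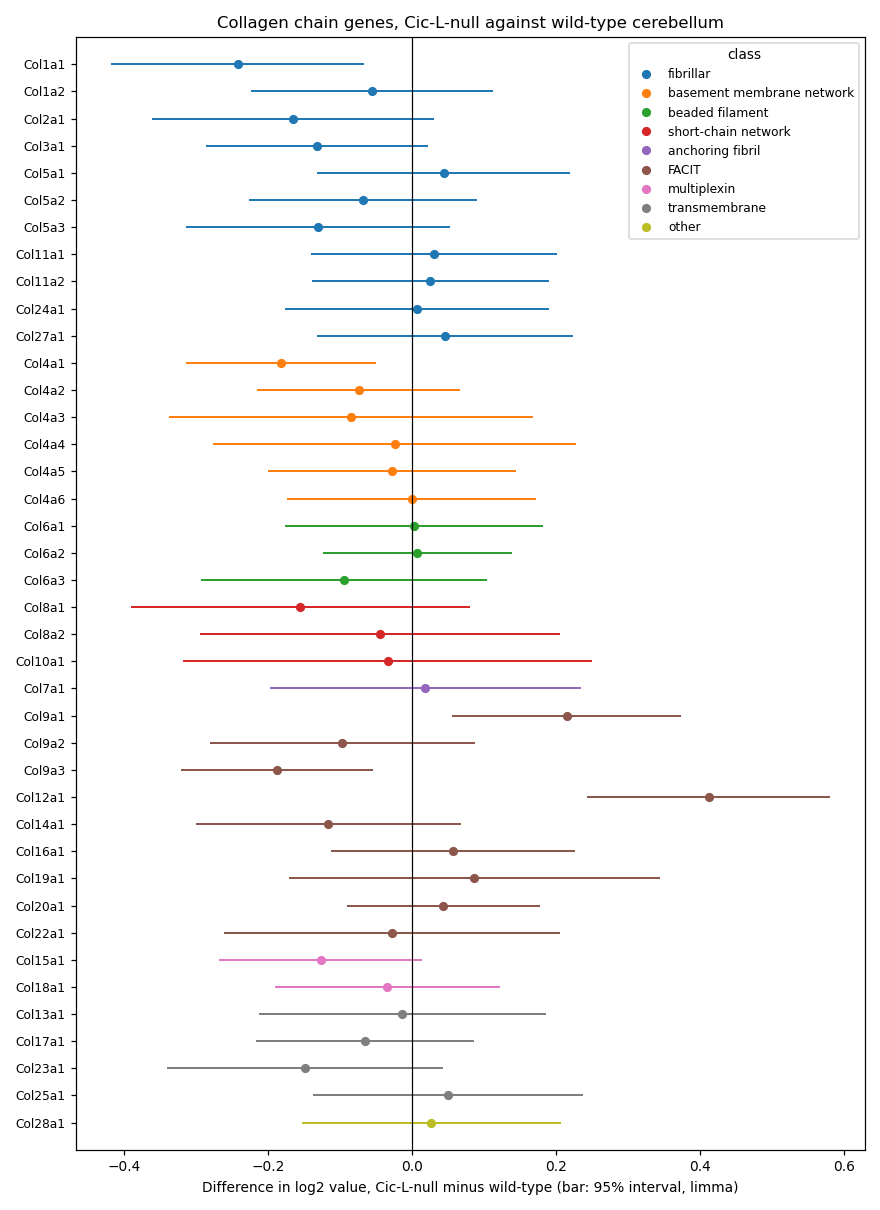
Difference in log2 value, Cic-L-null minus wild-type, for the 40 collagen chain genes, coloured by class; points are limma estimates and bars 95% intervals (n = 4 in each group). Col12a1, at 0.41, lies apart from the other chains, and 35 of the 40 bars cross 0.

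The FACIT class held the gene with the smallest p. Col12a1 encodes the chain of type XII collagen, which binds the surface of type I fibrils and links them to other matrix proteins. Its log2 value was 6.95, 7.16, 6.93 and 6.96 in Cic-L-null arrays, against 6.68, 6.63, 6.44 and 6.61 in wild-type arrays. The lowest mutant array lay above the highest wild-type array, and Cic-L-null replicate 2 stood above the other mutants. The difference was 0.41 (SE 0.075, 95% interval 0.24 to 0.58), or 1.33-fold, with a limma adjusted p of 0.0766, so it did not pass over all genes. Of its 68 probe sets, 58 had a higher mean in Cic-L-null and 10 a lower one, with a median of 0.41. Groups did not overlap in 11 of the 68, all higher (2.39% of all probe sets were higher without overlap). The gene value is the mean of these same probe sets, and the gene was picked by its p. Their counts, here and for the genes below, are therefore no separate support. The call depended on the setting. Col12a1 passed with probe sets above the dim limit only (0.41, adjusted p = 0.0492), among genes above the dim limit only (0.41, adjusted p = 0.0435) and with a trended and robust variance (0.41, adjusted p = 0.0460). The filter on probe sets kept 47 of the 68 by their mean over both groups. Some may have been kept through their Cic-L-null values, so the call under that filter is no support. Over all 18 alternatives the Col12a1 difference stayed between 0.36 and 0.44 and its adjusted p between 0.0435 and 0.288. Without Cic-L-null replicate 2 the difference was 0.36 (adjusted p = 0.170). With a covariate of Y-linked genes it was 0.39 (adjusted p = 0.124).

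Col14a1 encodes type XIV collagen, the closest relative of type XII among the fibril-associated chains. It had log2 values of 6.33, 6.44, 6.36 and 6.20 in Cic-L-null arrays, against 6.23, 6.51, 6.53 and 6.53 in wild-type arrays. Wild-type replicate 1 lay among the mutants and below the other wild-type arrays, and the difference was -0.12 (SE 0.082, adjusted p = 0.749). Of the other single-chain FACIT genes, Col16a1, Col19a1, Col20a1 and Col22a1 differed by between -0.028 and 0.087, and each had overlapping groups. A Col16a1 probe set, 10508604, stood out from its gene. It had 7.15, 6.89, 7.44 and 7.29 in Cic-L-null arrays, against 6.05, 4.82, 5.39 and 4.22 in wild-type arrays. Its difference was 2.07 (SE 0.35, adjusted p = 0.34 over all probe sets), whereas Col16a1 as a whole differed by 0.057 (SE 0.076). Its values in wild-type arrays lay below the dim limit, and it was named after its value was seen.

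Type IX collagen is a FACIT of 3 different chains, and its genes did not differ in the same direction. Col9a1 had log2 values of 7.30, 7.39, 7.33 and 7.31 in Cic-L-null arrays, against 6.95, 7.10, 7.18 and 7.24 in wild-type arrays. All mutant arrays lay above all wild-type arrays, and wild-type replicate 1 was the lowest. The difference was 0.21 (SE 0.071, adjusted p = 0.345), and 26 of its 39 probe sets were higher. With the median probe set as the gene value it was 0.39 (adjusted p = 0.491). Col9a3 had 8.33, 8.35, 8.32 and 8.20 in Cic-L-null arrays, against 8.45, 8.57, 8.49 and 8.44 in wild-type arrays. Here all mutant arrays lay below all wild-type arrays, and the difference was -0.19 (SE 0.060, adjusted p = 0.329), with 25 of 32 probe sets lower. Col9a2 had overlapping groups and a difference of -0.097 (SE 0.082, adjusted p = 0.806). Set against each other within each array, Col9a1 minus Col9a3 averaged -0.97 ± 0.061 in Cic-L-null and -1.37 ± 0.14 in wild-type (SD, n = 4 each). The 2 groups of within-array values did not overlap, which follows from Col9a1 being higher and Col9a3 lower in every mutant array. The offset between the chains has no meaning of its own, since it reflects the probes, and the shift of 0.40 between the groups is unaffected by a constant added to an array. The pairs of chains were chosen after gene values were seen, and the shift was not tested.

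**Figure D2:**
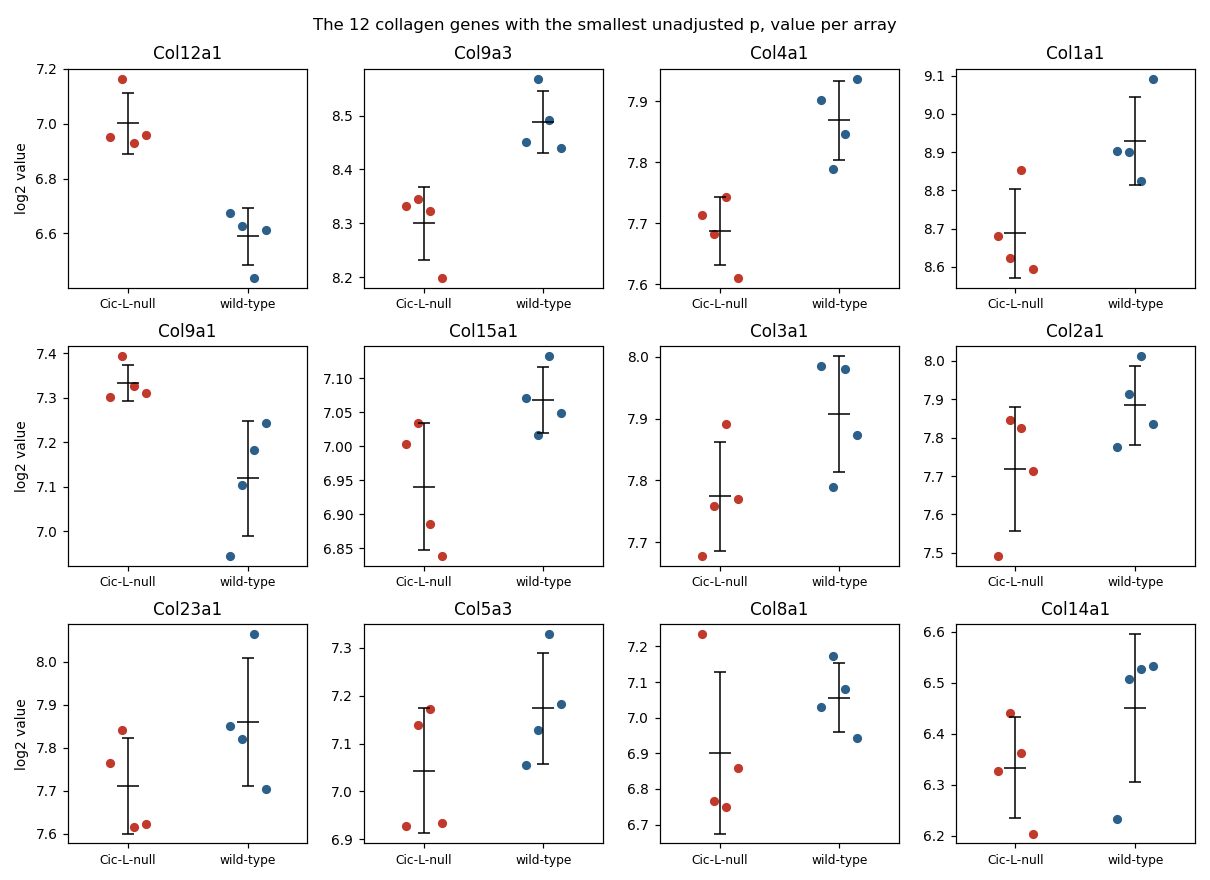
Log2 value on each of the 8 arrays for the 12 collagen genes with the smallest unadjusted p; each panel has its own axis, and black marks give the group mean and SD (n = 4). Groups are separate in the panels of Col12a1, Col9a3, Col4a1 and Col9a1 and overlap in the other 8.

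Among the 11 fibrillar genes, 5 differed above and 6 below 0, with a median of -0.056, and 0 passed. Col1a1 and Col1a2 encode the chains of type I collagen, the main fibre protein of the meninges. Col1a1 had log2 values of 8.68, 8.62, 8.85 and 8.59 in Cic-L-null arrays, against 8.90, 8.90, 8.82 and 9.09 in wild-type arrays. Only Cic-L-null replicate 3 reached into the wild-type range. The difference was -0.24 (SE 0.079, 95% interval -0.42 to -0.067, adjusted p = 0.336), with 47 of 52 probe sets lower. Col1a2 had 8.77, 8.91, 9.02 and 8.75 in Cic-L-null arrays, against 8.90, 8.94, 8.82 and 9.02 in wild-type arrays. Its groups overlapped widely, and the difference was -0.056 (SE 0.075, 95% interval -0.22 to 0.11). Leaving out Cic-L-null replicate 3 gave -0.11 and leaving out Cic-L-null replicate 4 gave -0.019, the extremes over single arrays, and the median probe set gave -0.13. Within an array, Col1a1 minus Col1a2 averaged -0.18 ± 0.081 in Cic-L-null and 0.010 ± 0.045 in wild-type (SD, n = 4 each), a shift of -0.19 with no overlap between the groups.

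Col3a1, the chain of type III collagen, which is found with type I in soft tissue and vessel walls, had log2 values of 7.68, 7.76, 7.89 and 7.77 in Cic-L-null arrays, against 7.98, 7.79, 7.98 and 7.87 in wild-type arrays. The groups overlapped, the difference was -0.13 (SE 0.069, adjusted p = 0.624), and it was 0.012 with the median probe set as the gene value. Col5a2, its neighbour in the genome, differed by -0.068 (SE 0.071). Col2a1, the main fibrillar chain of cartilage, had 7.49, 7.85, 7.82 and 7.71 in Cic-L-null arrays, against 7.78, 7.91, 8.01 and 7.84 in wild-type arrays. Cic-L-null replicate 1 was the lowest of all arrays, and the difference was -0.17 (SE 0.088, adjusted p = 0.629). Col5a3, a chain of type V collagen, had 6.93, 7.14, 7.17 and 6.93 in Cic-L-null arrays, against 7.06, 7.13, 7.33 and 7.18 in wild-type arrays, which overlap. Its difference was -0.13 (SE 0.082). The other fibrillar genes, Col5a1, Col11a1, Col11a2, Col24a1 and Col27a1, differed by between 0.0075 and 0.046, with SE from 0.074 to 0.082.

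Markers of meningeal fibroblasts, a list that holds no collagen, were read beside Col1a1. Of 18 markers, 8 differed below 0 and 10 above, with a median of 0.089 and 0 calls. Mgp was higher without overlap (3.02% of all genes were), by 0.32 (SE 0.074, adjusted p = 0.159). Igf2 and Pdgfra were lower without overlap (2.91% of all genes were), by -0.22 (SE 0.068, adjusted p = 0.302) and -0.14 (SE 0.067, adjusted p = 0.590). Igf2 lies on chromosome 7, as Cic does. Whether each marker is specific to these cells in cerebellum was not tested. The mean log2 value of the 18 markers per array ranged from 7.50 to 7.61 in Cic-L-null and from 7.48 to 7.58 in wild-type. All 18 were above the dim limit, and the part of these cells in the Col1a1 values was not tested. Of the cartilage and bone markers, 7 were measured, 4 of them above the dim limit, with a mean log2 value between 6.02 and 6.29 in Cic-L-null and between 6.03 and 6.24 in wild-type. Of 11 measured choroid plexus markers, 3 differed above and 8 below 0, with a median of -0.066 and 0 calls. Their mean per array ranged from 7.09 to 8.12 in Cic-L-null and from 7.59 to 8.03 in wild-type. Cic-L-null replicate 3 was the lowest mutant array for every choroid plexus marker but Kcne2. For Ttr it had 10.92, where the other mutants lay from 12.04 to 12.64. The part of choroid plexus in the collagen values was not tested.

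All 6 basement membrane genes had a difference below 0, as 53.0% of all genes did. The differences ran from -0.18 for Col4a1 to -0.00050 for Col4a6, with a median of -0.051, and 0 passed. Col4a1 and Col4a2 form the common type IV network of vessels. Col4a1 had log2 values of 7.71, 7.68, 7.74 and 7.61 in Cic-L-null arrays, against 7.90, 7.79, 7.85 and 7.94 in wild-type arrays. The highest mutant array lay just below the lowest wild-type array, and the difference was -0.18 (SE 0.059, 95% interval -0.31 to -0.051, adjusted p = 0.335). Groups did not overlap in 5 of its 51 probe sets, all lower (1.91% of all probe sets were lower without overlap). The gene value is the mean of these probe sets, so the count is no separate support. Col4a2 had 7.78, 7.75, 7.89 and 7.66 in Cic-L-null arrays, against 7.85, 7.80, 7.87 and 7.86 in wild-type arrays. Cic-L-null replicate 3 was the highest of the 8 and replicate 4 the lowest, and the difference was -0.074 (SE 0.063, adjusted p = 0.806). With the median probe set as the gene value it was 0.086. Within an array, Col4a1 minus Col4a2 averaged -0.084 ± 0.047 in Cic-L-null and 0.024 ± 0.047 in wild-type (SD, n = 4 each), a shift of -0.11 without overlap, for the genes whose starts are printed above. The pairs Col4a3 with Col4a4 and Col4a5 with Col4a6, which are also neighbours and form the networks of kidney and other specialised membranes, shifted by -0.060 and -0.027 with overlapping groups.

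Endothelial markers were read beside Col4a1. Of 15 markers, 12 differed below 0, with a median of -0.078 and 0 calls, and all were above the dim limit. Their mean log2 value per array ranged from 8.07 to 8.24 in Cic-L-null and from 8.11 to 8.31 in wild-type. Itm2a, Cldn5 and Abcb1a were lower without overlap (2.91% of all genes were), by -0.39 (SE 0.090), -0.27 (SE 0.070) and -0.13 (SE 0.056). Their adjusted p values were 0.159, 0.218 and 0.509. Of the 3 markers above 0, Kdr differed most, by 0.39 (SE 0.13, adjusted p = 0.337), with overlapping groups. The largest difference of the list was in Slco1a4, -0.58 (SE 0.32, adjusted p = 0.651), also with overlapping groups. Its SD of 0.78 in Cic-L-null was the largest of the list, so it weighs on the spread of the mean. Of 12 pericyte and smooth muscle markers, 3 differed below 0, with a median of 0.043. Their mean ranged from 6.96 to 7.06 in Cic-L-null and from 6.87 to 7.01 in wild-type. Glial markers were read beside it too. All 7 Bergmann glia and astrocyte markers were below 0, with a median of -0.14 and 3 without overlap (2.91% of all genes were lower without overlap). Their mean ranged from 9.50 to 9.57 in Cic-L-null and from 9.73 to 9.90 in wild-type. The differences ran from -0.015 (SE 0.078) for Hopx to -1.17 for Fabp7, which weighs most in this mean. The member called was Fabp7, a lipid carrier of glia. It had 9.44, 9.23, 9.29 and 8.93 in Cic-L-null arrays, against 10.43, 10.34, 10.07 and 10.72 in wild-type arrays, and differed by -1.17 (SE 0.14, adjusted p = 0.0180). All 6 measured oligodendrocyte markers were below 0, with a median of -0.12, 4 without overlap (against the same 2.91%) and 0 calls. Their mean ranged from 10.53 to 10.64 in Cic-L-null and from 10.70 to 10.78 in wild-type. The part of any of these cell types in the Col4a1 values was not tested.

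**Figure D3:**
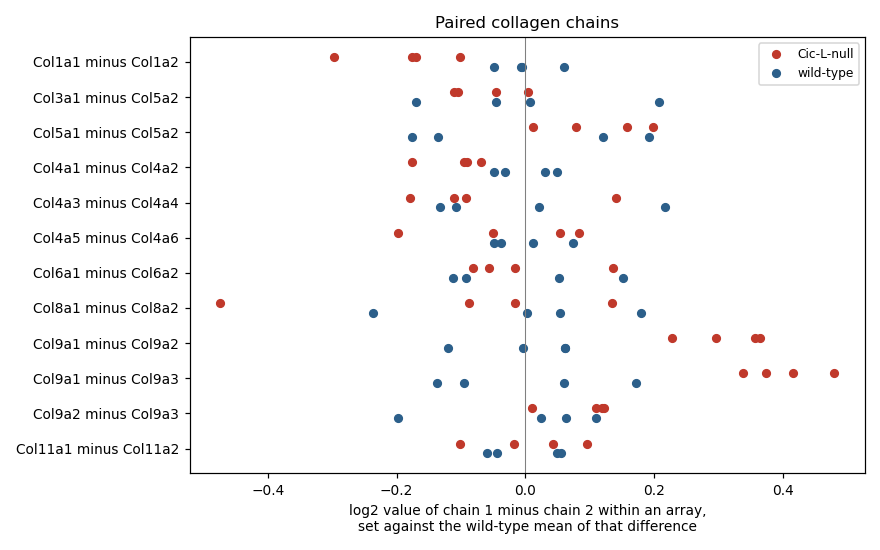
Within-array difference between the log2 values of 2 collagen chains for 12 pairs, set against the wild-type mean of that difference; each point is 1 array. The Cic-L-null arrays lie outside the wild-type range for Col1a1 with Col1a2, Col4a1 with Col4a2, and Col9a1 with Col9a2 and Col9a3. They overlap it for the other 8 pairs. For Col9a1 with Col9a3 the separation follows from the single genes, and Col4a1 was separate by itself too. No share over other gene pairs was computed, and the pairs were chosen after gene values were seen.

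The multiplexins are basement membrane proteoglycans whose ends release the angiogenesis inhibitors endostatin and restin. Col15a1 had log2 values of 7.003, 7.03, 6.89 and 6.84 in Cic-L-null arrays, against 7.07, 7.02, 7.13 and 7.05 in wild-type arrays. Cic-L-null replicate 2 overlapped the lowest wild-type array, and the difference was -0.13 (SE 0.063, adjusted p = 0.596). Col18a1, the source of endostatin, had 8.24, 8.09, 8.26 and 8.07 in Cic-L-null arrays, against 8.31, 8.15, 8.12 and 8.22 in wild-type arrays, which overlap. Its difference was -0.034 (SE 0.070).

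The beaded filament genes of type VI collagen, which surrounds cells in connective tissue, had overlapping groups. Col6a1 had log2 values of 7.63, 7.82, 7.92 and 7.64 in Cic-L-null arrays, against 7.65, 7.72, 7.86 and 7.77 in wild-type arrays, with a difference of 0.0030 (95% interval -0.17 to 0.18). Col6a2, its partner and near neighbour, had 7.57, 7.71, 7.66 and 7.60 in Cic-L-null arrays, against 7.62, 7.71, 7.59 and 7.59 in wild-type arrays, with a difference of 0.0074 (95% interval -0.12 to 0.14). The groups overlapped for both, and the intervals do not show that the differences are 0. Col6a3 differed by -0.094 (SE 0.089), and its probe set 10356532 had the smallest p of all 1861 collagen probe sets. That probe set had 4.60, 4.97, 5.07 and 4.58 in Cic-L-null arrays, against 5.85, 5.67, 5.92 and 6.17 in wild-type arrays, all below the dim limit, with a difference of -1.10 (SE 0.15, adjusted p = 0.204).

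The remaining classes gave no separation. Of the transmembrane genes, Col23a1 had log2 values of 7.77, 7.84, 7.62 and 7.62 in Cic-L-null arrays, against 7.85, 7.82, 8.06 and 7.70 in wild-type arrays, with a difference of -0.15 (SE 0.086, adjusted p = 0.671). Col13a1, Col17a1 and the neuronal Col25a1 differed by -0.013, -0.065 and 0.050. Among the short-chain network genes, Col8a1, a chain of vessel walls, rests on 5 probe sets. It had 7.23, 6.77, 6.75 and 6.86 in Cic-L-null arrays, against 7.03, 7.17, 7.08 and 6.94 in wild-type arrays, so that Cic-L-null replicate 1 was the highest of all 8 while the other mutants were the lowest. Its difference was -0.16 (SE 0.11). Col8a2 and Col10a1, which is known from growth plate cartilage, differed by -0.044 and -0.033. Col7a1, the chain of anchoring fibrils of skin, and Col28a1, which was below the dim limit, differed by 0.019 and 0.027. Another 4 chains, Col6a4, Col6a5, Col6a6 and Col26a1, stood under older symbols in the annotation and were outside the rule. They differed by between -0.066 and 0.039.

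The 40 genes held 1861 probe sets, from 3 for Col10a1 to 114 for Col7a1. Tested among 241576, 0 of the 1861 passed (0.000414% passed over all probe sets), with 179 at an unadjusted p under 0.05 (9.62%, against 6.8% of all probe sets). Groups did not overlap in 23 that were higher (2.39% of all probe sets were) and 33 that were lower (1.91%), together 3.01%, against 4.3% of all probe sets. Col12a1 supplied 11 of the 23 higher ones.

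**Figure D4:**
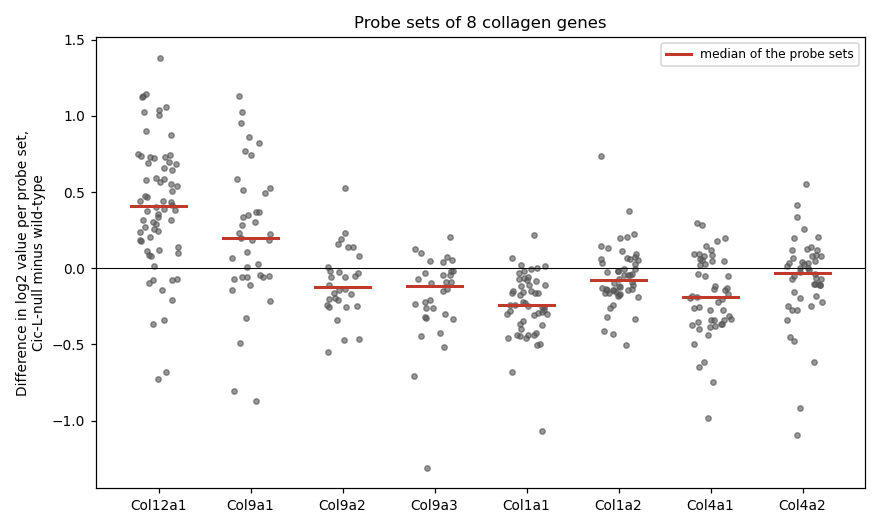
Difference in log2 value, Cic-L-null minus wild-type, of each probe set of 8 collagen genes, with the median as a red line. The medians are 0.41 for Col12a1, 0.20 for Col9a1, -0.24 for Col1a1 and -0.19 for Col4a1, against -0.080 for Col1a2 and -0.029 for Col4a2.

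Single arrays of a group also differed in their collagen values. Wild-type replicate 1 was the lowest wild-type array for 22 of the 40 genes (it was lowest for 32.6% of all genes), and wild-type replicate 3 was the highest for 22 of the 40 (28.1% of all genes). Relative to each gene's wild-type mean, the median collagen gene lay at -0.053, -0.0099, 0.0045 and -0.12 in Cic-L-null replicates 1 to 4. The same median was -0.11, 0.024, 0.0996 and 0.0019 in wild-type replicates 1 to 4. The corresponding medians over all genes stayed between -0.018 and 0.0035 on the 8 arrays. The sign of the median collagen difference depended on the array left out. Without wild-type replicate 3 the median difference was 0.017, with 18 of 40 genes below 0. Without wild-type replicate 1 it was -0.077, with 31 below 0. With the covariate of Y-linked genes it was 0.015, with 19 below 0.

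**Figure D5:**
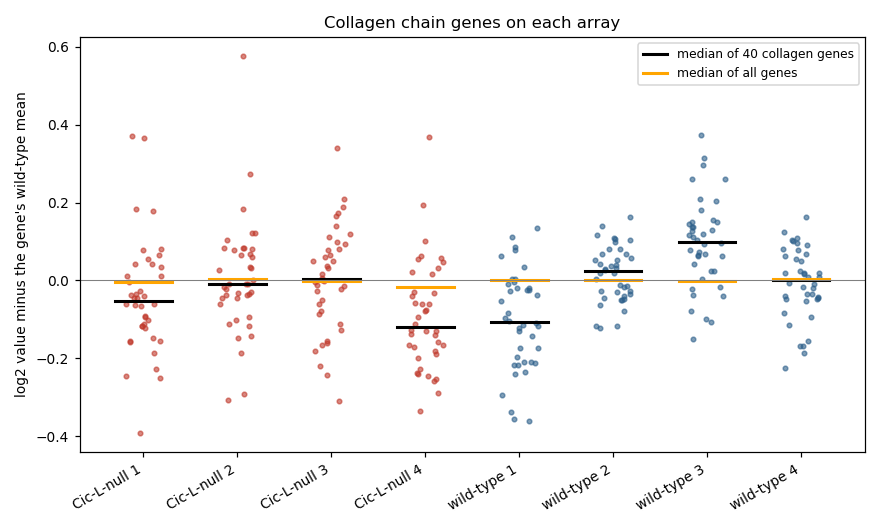
Log2 value of each of the 40 collagen genes on each array, minus that gene's wild-type mean; black lines are the median of the 40 genes and orange lines the median of all genes. The black line is lowest in Cic-L-null replicate 4 (-0.12) and wild-type replicate 1 (-0.11) and highest in wild-type replicate 3 (0.0996).

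Genes that make, process and bind collagen were read against the same background of 0.138% calls, and 0 of the measured members of 5 lists passed in either direction. Of 21 genes of procollagen folding and modification, 10 differed above and 11 below 0, with a median of -0.0021. Tram2, a translocon component needed for collagen synthesis, had log2 values of 6.03, 6.14, 6.10 and 5.97 in Cic-L-null arrays, against 6.14, 6.23, 6.37 and 6.18 in wild-type arrays, which overlap, with a difference of -0.17 (SE 0.069, adjusted p = 0.471). P4hb, the common subunit of the prolyl 4-hydroxylases, had 9.86, 9.89, 9.69 and 9.82 in Cic-L-null arrays, against 9.83, 9.72, 9.63 and 9.71 in wild-type arrays, which overlap. Of 14 genes of processing and cross-linking outside the cell, 5 differed above and 9 below 0, with a median of -0.033. Lox, the lysyl oxidase that starts cross-links, had 5.99, 5.96, 5.999 and 5.80 in Cic-L-null arrays, against 5.84, 5.69, 5.67 and 5.64 in wild-type arrays, all below the dim limit and overlapping, with a difference of 0.23 (SE 0.070, adjusted p = 0.31). Pcolce2, an enhancer of procollagen cleavage, had 6.93, 6.91, 6.68 and 6.63 in Cic-L-null arrays, against 6.94, 6.93, 7.14 and 6.96 in wild-type arrays. Cic-L-null replicate 1 was level with the lowest wild-type array, and the difference was -0.20 (SE 0.084, adjusted p = 0.483).

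Collagen receptors held the value nearest to a call. Lair1, an inhibitory receptor of leukocytes that binds collagen, had log2 values of 6.69, 6.72, 6.62 and 6.72 in Cic-L-null arrays, against 6.33, 6.16, 5.86 and 5.75 in wild-type arrays. All mutant arrays lay above all wild-type arrays and above the dim limit, which only wild-type replicate 1 exceeded in its group. The difference was 0.66 (SE 0.11, adjusted p = 0.0669). No fold is given, because the wild-type mean of 6.02 lay below the dim limit. It passed with a trended and robust variance (adjusted p = 0.0195), with array weights (0.69, adjusted p = 0.0297) and without wild-type replicate 1 (0.77, adjusted p = 0.0322), and it was 0.39 (adjusted p = 0.615) with the median probe set as the gene value. Among genes above the dim limit the adjusted p was 0.0394, but Lair1 entered that set through its Cic-L-null values, so this gives the call no support. Lair1 lies on chromosome 7, as Cic does. Adgrg1, a receptor for type III collagen in the developing cortex, had 8.88, 9.29, 8.78 and 9.04 in Cic-L-null arrays, against 8.69, 8.71, 8.74 and 8.71 in wild-type arrays, without overlap. Its difference was 0.29 (SE 0.098, adjusted p = 0.364). Of the 10 measured receptor genes, 5 differed above and 5 below 0.

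Partners of collagen in the matrix came next. Of 14 basement membrane partners, 6 differed above and 8 below 0, with a median of -0.042. Lamc3, a laminin chain, had log2 values of 7.08, 7.06, 7.02 and 7.10 in Cic-L-null arrays, against 7.18, 7.17, 7.23 and 7.38 in wild-type arrays, without overlap, and differed by -0.17 (SE 0.063, adjusted p = 0.396). Nid1, which joins laminin to type IV collagen, had 8.60, 8.35, 8.77 and 8.44 in Cic-L-null arrays, against 8.93, 8.56, 8.58 and 8.80 in wild-type arrays, and its groups overlapped. Of 17 fibril-associated proteoglycans and glycoproteins, 10 differed above and 7 below 0, with a median of 0.056. Omd, a small leucine-rich proteoglycan, had 5.66, 5.55, 5.54 and 5.51 in Cic-L-null arrays, against 5.42, 5.06, 4.88 and 5.21 in wild-type arrays, all below the dim limit, with a difference of 0.42 (SE 0.10, adjusted p = 0.189). Fbn1, the fibrillin of elastic microfibrils, had 7.50, 7.27, 6.95 and 7.28 in Cic-L-null arrays, against 6.98, 6.89, 6.96 and 6.74 in wild-type arrays, which overlap through Cic-L-null replicate 3. Its difference was 0.36 (SE 0.11, adjusted p = 0.294). The other members at an unadjusted p under 0.05 were lower in Cic-L-null, with overlapping groups. Postn (periostin) differed by -0.31 (SE 0.099, adjusted p = 0.335) and lay below the dim limit, and Bgn (biglycan) differed by -0.19 (SE 0.078, adjusted p = 0.468).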

How the data were processed

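RNA of 8 cerebellum samples, 4 Cic-L-null and 4 wild-type, was measured on Affymetrix Mouse Gene 1.0 ST arrays, grouped by sample title. The deposited table holds log2 values. Per the submitters' processing notes, the authors made them by RMA with Affymetrix Power Tools. The version and build were not given in the sources used here. It has 241576 probe sets, of which 212097 have 1 gene symbol in the platform annotation, 4475 several and 25004 none. Only those with 1 symbol entered a gene value, their mean, for 20352 genes. Of 20416 platform symbols, 17621 were current in GRCm38.p6, 2742 were updated through a synonym and 53 were kept. A collagen probe set shared with another symbol (2 cases) was left out.

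Groups were compared with limma 3.58.1 under R 4.3.3 (lmFit, then eBayes with no trend, both directions, Benjamini-Hochberg over all genes, called under 0.05), checked on simulated data. Array medians lay between 7.82 and 7.88. The number of arrays limits the precision, and p-values measure only the spread between these samples, which may be technical. Values on every array are given for collagen genes that were called or did not overlap, the 12 with the smallest p, 8 main chains, and 2 genes of each of the 5 collagen-related lists. Marker lists are given by counts and ranges, with values on every array for called members only. The Purkinje and granule cell lists are given only against the dim limit. Alternatives covered gene values, filters on dim signal, scaling, the variance model, weights per array, the replicate number as a block, Y-linked genes as a covariate (Kdm5d, Eif2s3y and Uty) and each array left out. Members and lists were chosen with earlier results of these data known.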

Additional observations from a re-analysis of the deposited data

Results flagged for a closer look

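An array was noted where its gap to the nearest of the other 3 arrays of its group took up a larger share of the group's range than Dixon's 95% critical value, which chance gives in about 1 of 20 groups. This held for 11 of 102 groups examined. Cic-L-null replicate 2 was high for Col12a1, at 7.16, where the other mutants lay from 6.93 to 6.96. Cic-L-null replicate 4 was low for Col25a1 at 6.61 (others 6.74 to 6.76), for Col6a3 at 6.47 (6.68 to 6.69), for Col7a1 at 7.34 (7.52 to 7.55) and for Col9a3 at 8.20 (8.32 to 8.35). Wild-type replicate 1 was low for Col14a1 at 6.23 (6.51 to 6.53), for Col4a4 at 6.15 (6.61 to 6.67), for Col7a1 at 7.18 (7.56 to 7.57) and for Col9a2 at 7.81 (8.10 to 8.15). Wild-type replicate 3 was high for Col20a1 at 7.39 (7.30 to 7.31) and for Pcolce2 at 7.14 (6.93 to 6.96). Wild-type replicate 1 is the array whose extraction label differs from the others, and the part of extraction in these values was not tested.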

How the results depend on the processing

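Collagen calls numbered 0 in 15 of 18 alternatives and 1, Col12a1, with probe sets above the dim limit only, among genes above the dim limit only, and with a trended and robust variance. The filter on probe sets may keep some through their Cic-L-null values, so the Col12a1 call under it is no support. The alternatives run on probe sets called 0 collagen probe sets. Genes of the 5 collagen-related lists gave 0 calls, against 1, Lair1, among genes above the dim limit only, with a trended and robust variance and with array weights, and 0 to 1 with 1 array left out. Lair1 is above the dim limit through its Cic-L-null values alone, so its call under that filter is no support. Calls over all genes numbered 28 as reported, 2 with the median of the probe sets, 69 among genes above the dim limit only, 130 with a trended and robust variance, 54 with array weights, 18 with Y-linked genes as a covariate, and 0 to 37 with 1 array left out; the cause was not tested. The median collagen difference ranged from -0.077 to 0.017 with 1 array left out.

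With the replicate numbers as a block, 0 genes were called over all genes and 0 among the collagens. Deviations of same-numbered arrays correlated at 0.22, 0.00033, 0.21 and 0.026, and Cic-L-null replicates 1 and 3 correlated best with their own number. These values are mixed and not all above 0.1, so the samples were treated as sharing only a number. Of the 40 collagen genes, 15 kept their sign under every alternative that gave a value, and 25 changed it at least once, 24 of them with a difference under 0.1 in size and Col3a1 at -0.13. Col10a1, with 3 probe sets, 1 of them above the dim limit, and Col28a1, below it, are limited by signal.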
